A study of Mus musculus with 6 samples.

Results

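Among 75867 nuclei from the mouse forebrain, 87 carried RNA of both the SoxC factor Sox11 and the Dlx genes together with a second gene of immature neurons. They were also limited to low counts of a few marker genes of dividing cells, striatal neurons, excitatory neurons and interneurons that express Lhx6 or much Adarb2. Other markers of these cells were not limited by the choice. These 87 nuclei were 0.115% of all nuclei (exact Clopper-Pearson 95% interval 0.0919 to 0.141). They were chosen by unique molecular identifier (UMI) counts, where 1 UMI stands for 1 captured RNA molecule. A member had at least 2 UMIs of Sox11, at least 2 UMIs of Dlx1, Dlx2 and Dlx6os1 together, and at least 1 UMI of Dcx, Igfbpl1, Cd24a or Sox4. It had at most 1 UMI of Top2a and Mki67 together, at most 1 of Rgs9, at most 1 of Lhx6, at most 1 of Slc17a7 and Slc17a6 together, at most 9 of Adarb2, and a mitochondrial share under 10%. The levels of these rule genes are therefore descriptions of the choice. The class was proposed as postnatal GABAergic neuroblasts.

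The study asked how loss of NPC1, the cholesterol transporter that is deficient in Niemann-Pick type C disease, changes forebrain cells early in the disease. It used untreated mice on postnatal day 16, 3 WT and 3 Npc1-/-, and 1 library was made from the flash-frozen forebrain of each. The Npc1-/- mice carried the Npc1nih allele in every cell and were F1 hybrids of heterozygous parents on BALB/cJ and C57BL6/J backgrounds, and littermates served as controls. The deposited matrix holds 6 libraries that are told apart by a barcode suffix, and no source used here ties a suffix to a mouse. WT and Npc1-/- nuclei were therefore not compared, the libraries are named 1 to 6 by suffix, and all values describe the pooled nuclei or single libraries. No test of the comparisons was run, and all intervals are exact 95% intervals that cover counting error only.

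GABAergic neuroblasts are young inhibitory neurons on their way from a germinal zone to their final position. In the postnatal forebrain they arise mainly from stem cells in the wall of the lateral ventricle and migrate in chains through the rostral migratory stream to the olfactory bulb. Dlx homeodomain factors set the GABAergic fate, SoxC factors switch on the early neuronal programme, and doublecortin (Dcx) holds together the microtubules that pull the nucleus forward.

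Libraries 1 to 6 held 17, 17, 23, 17, 6 and 7 of the 87 nuclei, out of 8215 to 16109 nuclei per library. The shares were 0.123%, 0.106%, 0.156%, 0.139%, 0.0556% and 0.0852% in the same order. The share was lowest in libraries 5 and 6 and highest in library 3, and the 6 counting intervals, which spanned 0.0204 to 0.233%, overlapped one another. The nuclei had a median of 7415 UMIs (1927 to 38937), against 4957 over all nuclei. The median over the members of a library ran from 2691 UMIs in library 6 to 10298 in library 3, and library totals ran from 51342120 to 107561475 UMIs. Of the 87 barcodes, 2 also occurred in another library, as did 1264 of all barcodes kept, and no barcode was shared by 2 members.

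**Figure D1:**
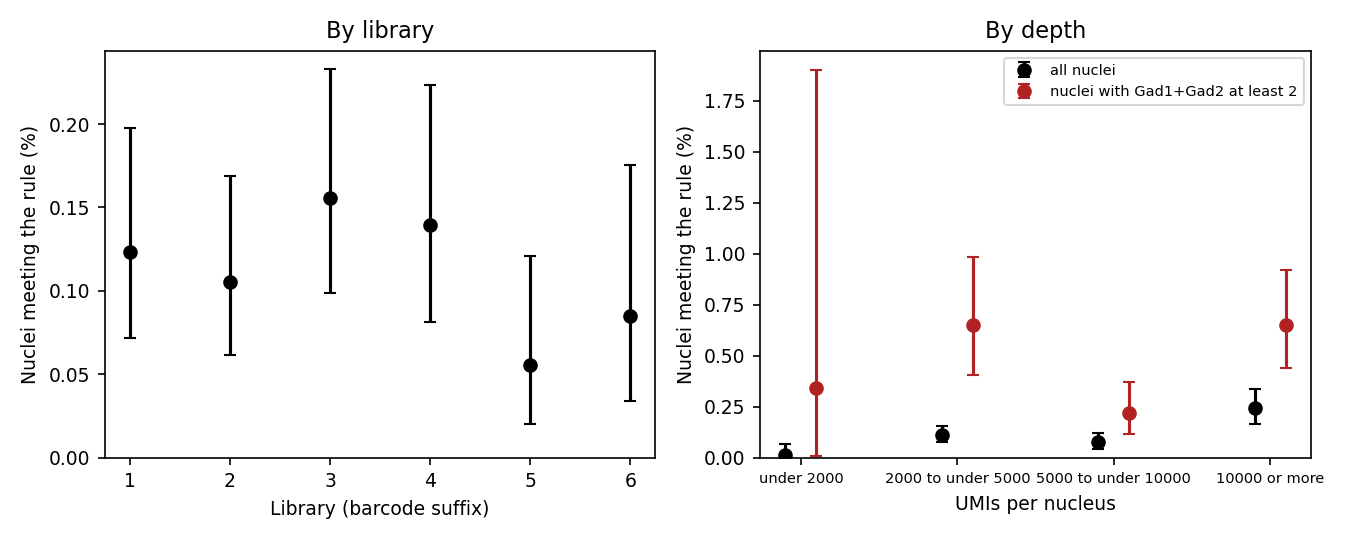
Share of nuclei that met the rule, in percent with exact 95% intervals, by library (left) and by the number of UMIs per nucleus (right), for all nuclei and for nuclei with at least 2 UMIs of Gad1 and Gad2. Library intervals overlap, and the share among all nuclei was 0.113% from 2000 to under 5000 UMIs, 0.0765% from 5000 to under 10000 and 0.242% at 10000 or more.

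Sox11, a transcription factor of early postmitotic neurons, stood at the minimum in most members. It had exactly 2 UMIs in 69 nuclei, 3 in 11 and at least 4 in 7, with 11 at most. Together, Dlx1, Dlx2 and Dlx6os1 had a median of 3 UMIs and at most 23, and 21 nuclei were at both minima. Dlx6os1, a long noncoding RNA of the Dlx5 and Dlx6 locus, was present in 87 of 87 nuclei (1 to 22 UMIs), and it was the sole Dlx gene detected in 53. Dlx1 was detected in 27 nuclei and Dlx2 in 8. Of the second genes, Dcx was detected in 73 nuclei, Igfbpl1, a marker of migrating neuroblasts, in 40, the SoxC factor Sox4 in 27 and the surface protein gene Cd24a in 10. A single second gene was present in 41 nuclei, 2 in 31, 3 in 13 and 4 in 2.

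Members just inside the Sox11 minimum can be set beside the 209 nuclei that had 1 UMI of Sox11 and met every other condition. Igfbpl1 was at 91.2 CPM (UMIs of the gene per 1000000 UMIs of the class) with 2 UMIs of Sox11, at 42.5 CPM with 1, and at 74.8 CPM in the 18 members with 3 or more. In the same order, Meis2 stood at 1126, 682 and 938 CPM and Dlx6os1 at 461, 392 and 593. Dcx was at 190, 180 and 242 CPM, Sox4 at 40.9, 39.7 and 115, and Nxph1 at 1340, 1572 and 1560. Igfbpl1 and Meis2 were thus higher just inside the limit than just outside it, Dcx and Sox4 differed little there, and Nxph1 was lower inside.

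Some markers of the proposed label were high in these nuclei and others were sparse. Sox11 was at 258 CPM (224 to 296) in the members and at 32.7 in all other nuclei, Igfbpl1 at 87.7 (68.5 to 111) and 7.8, Dlx1 at 38.3 (26.0 to 54.4) and 4.72, Dlx2 at 11.1 (5.08 to 21.1) and 1.44, and Dcx at 201 (172 to 235) and 84.8. These ratios follow from the choice. Genes for GABA synthesis, which the rule did not use, were detected in most members, with Gad1 or Gad2 in 81 of 87, at least 2 UMIs of both together in 67, and neither in 6. Summed with Dlx5, Dlx6 and Sp9, they were at 446 CPM in the members and at 60.8 in microglial and endothelial nuclei. The part of free RNA in these detections was not tested. Olfactory bulb factors were mixed. The 16 factors of the list summed to 3760 CPM against 2381 in all other nuclei (log2 ratio 0.66, 0.61 to 0.71, in 6 of 6 libraries), while microglial and endothelial nuclei had 3203 and dividing progenitors 4586 (-0.29, higher in 0 of 6 libraries). The zinc finger factor Sp8 had 4 UMIs in 3 nuclei, and Prokr2, a receptor in the guidance of neuroblasts to the bulb, had 1 UMI. The 87 nuclei also fell into a shallow and a deep set with different genes, described further on. They are therefore called Sox11 and Dlx positive nuclei here, after the rule.

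Free RNA in the droplets was judged from 6057 microglial and endothelial nuclei. RNA made by these cells and free RNA were not told apart. The 16 olfactory bulb factors summed to 3203 CPM there against 2381 in all other nuclei. After each nucleus was thinned to 2000 UMIs, which left out 1 of the 87 members and 768 of the 6057, Sox11 was detected in 50% of members (39.0 to 61.0) and in 5.12% of microglial and endothelial nuclei. Before thinning the shares in the same nuclei were 100% and 11.6%. The median depth was 7415 UMIs over all 87 members and 3492 over all 6057 microglial and endothelial nuclei. For Dlx6os1 the thinned shares were 64% and 3.33% (100% and 7.18% before thinning). Of the second genes, Dcx was detected in 38.4% and 9.4% after thinning and Igfbpl1 in 20.9% and 1.23%. The shares of Sox4, 15.1% (8.3 to 24.5) and 9.79%, and of Cd24a, 2.33% (0.28 to 8.15) and 1.13%, could not be told apart. The members were selected for these genes, so their shares follow in part from the rule. The distance to the microglial and endothelial nuclei is a description only. Meis2 had a high level of its own in this comparison, at 61.6% of members and 30.4% of microglial and endothelial nuclei (77.9% and 48.2% before thinning). Nfib was detected in 61.6% (50.5 to 71.9) and 58.8%, shares that were not distinguishable at this depth (83.7% and 76.4% before thinning).

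**Figure D2:**
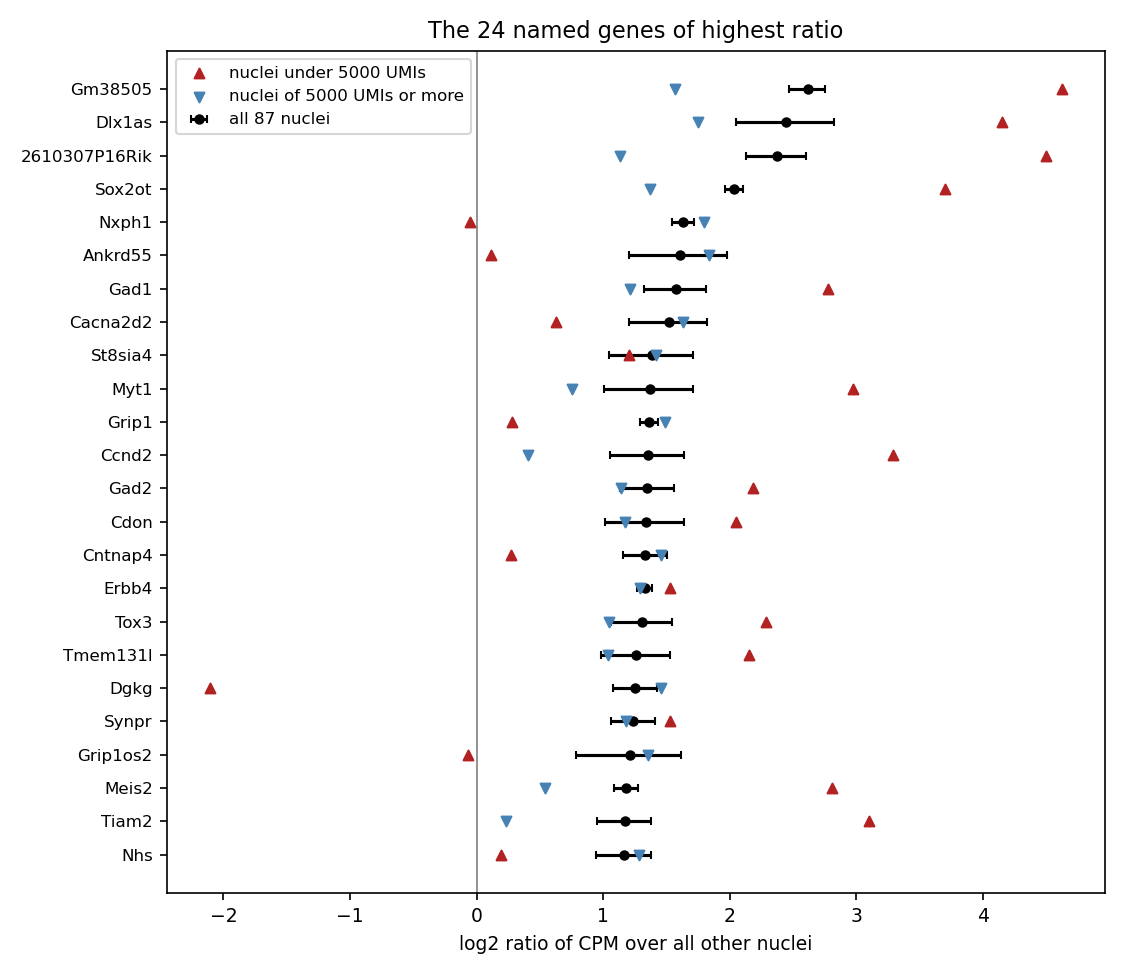
Log2 ratio of CPM over all other nuclei for 24 of the genes highest in the Sox11 and Dlx positive nuclei, with exact 95% intervals, for all 87 nuclei (black), the 35 under 5000 UMIs (red) and the 52 of 5000 or more (blue). Red points exceed blue points for Gm38505 and Ccnd2, whereas for Nxph1 and Dgkg the red points lie near or below 0.

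Compared with all other nuclei, 6356 of 22118 genes were at least 2-fold higher in the Sox11 and Dlx positive nuclei (28.7%) and 1220 at least 2-fold lower (5.52%). Much of the first count came from genes with few UMIs, because a counting interval above no difference left 425 genes higher (1.92%), and one below it left 380 lower (1.72%). This second call was added after the data were seen. Named genes had to be higher in the members of each of the 6 libraries, with at least 3 UMIs in each, which left 211 genes to rank.

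Dlx1as, an antisense RNA of the Dlx1 locus, stood at 67.2, 55.3, 65.0, 72.7, 151 and 69.2 CPM in the members of libraries 1 to 6, a log2 ratio of 2.45 over all other nuclei pooled, and was higher in 6 of 6 libraries. The counting strand is not stated in the sources used here, and Dlx1as (GRCm38, chr2:71516454-71537891, minus strand) spans Dlx1 (chr2:71528113-71533981, plus strand), so UMIs of this pair may be split or merged. The same holds for Dlx6os1 (chr6:6820189-6871592, minus strand), which spans Dlx6.

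The genes of the Dlx programme and of GABA synthesis outside the rule were Dlx5, Dlx6, Sp9, Gad1 and Gad2. Of these, 5 of 5 genes were at least 2-fold higher than in all other nuclei with the interval above no difference. Dlx6 lies inside the rule gene Dlx6os1, so its UMIs may be counts of that gene. The nuclei were chosen by Dlx RNA and against excitatory genes, so these levels follow in part from the choice. Sp9, a zinc finger factor of striatal and olfactory bulb precursors, was at 23.5 CPM (14.1 to 36.7) against 5.11. Dlx5 was at 14.8 CPM (7.66 to 25.9) against 1.77, and Dlx6 at 11.1 (5.08 to 21.1) against 3.00. Gad1, which encodes a GABA-synthesizing enzyme, stood at 134, 177, 182, 160, 246 and 208 CPM in libraries 1 to 6 and was higher in each, with a log2 ratio of 1.57 (1.32 to 1.81). Gad2, which encodes the other such enzyme, had a log2 ratio of 1.35 (1.13 to 1.56).

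Other leading genes had varied roles. Sox2ot, a noncoding RNA whose gene contains Sox2, was at 2030 CPM (1933 to 2130) against 495. Gm38505, a predicted gene on the opposite strand inside Sox2ot (chr3:34298172-34351712), was at 503 CPM (455 to 554) against 82.1, and reads of the 2 may not be separable. 2610307P16Rik, a transcript 63.3 kb from Sox4 on chromosome 13, was at 184 CPM (156 to 216) against 35.6. Cyclin D2 (Ccnd2) stood at 147, 122, 73.6, 160, 94.5 and 161 CPM in libraries 1 to 6, with a log2 ratio of 1.35 (1.05 to 1.64). St8sia4, which encodes a polysialyltransferase that modifies the adhesion molecule NCAM, was at 96.4 CPM against 36.8 (log2 ratio 1.39), although it was at 194 CPM in microglial and endothelial nuclei. Nxph1, a secreted ligand of neurexins, was at 1387 CPM (1307 to 1471) against 447, and the neuregulin receptor gene Erbb4 at 3238 CPM (3115 to 3364) against 1291. In the ranking against Adarb2 interneurons, a class described below, 2610307P16Rik and Ccnd2 were again among the highest named genes. Sox2ot, Gm38505, Dlx1as, St8sia4, Nxph1 and Erbb4 were not.

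The 10 lowest genes by the fixed ranking had 0 UMIs in the members, which allows at most 3 counts. Ikzf1, a zinc finger factor of blood cells and some striatal neurons, was at least 3.99-fold lower than in all other nuclei with that floor of 3 counts over the members, and Col16a1, the last of the 10, at least 2.23-fold lower. The exact 95% intervals are wider and end at log2 ratios of -1.70 and -0.86. Such bounds say little at this depth, since 809474 UMIs were counted over all members.

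Gene lists chosen for roles in neuroblasts gave between 0 and 3 calls higher per list outside the Dlx programme when all 87 nuclei were pooled. The counts below use the interval call, which 1.92% of all genes passed as higher and 1.72% as lower. Of 30 tested genes of the microtubule and migration machinery without Dcx, 3 were higher than in all other nuclei and 1 was lower (median log2 ratio 0.04, against 0.21 over all genes tested). Of 38 guidance receptors and ligands, 1 was higher and 1 lower (median 0.11). Of 22 genes of chain migration and adhesion, 2 were higher and 0 lower (median -0.03). Of 16 olfactory bulb interneuron factors, 3 were higher and 0 lower (median 0.59), among them Meis2, a homeodomain factor of bulb precursors, at 1086 CPM (1015 to 1160) against 479. Of 20 genes of the mature synapse and excitability, 0 were higher and 0 were lower by the interval call (median -0.22). Of 17 glutamate receptor genes 1 was higher (median 0.06), and of 16 genes of GABA signalling 1 was lower (median 0.14). Pooled over all members, then, the genes of mature neurons were near their level in other nuclei.

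Draxin, a secreted guidance protein, had the highest ratio in the guidance list. Its 20 UMIs came from 18 nuclei, at 24.7 CPM (15.1 to 38.2) against 1.82, a log2 ratio of 3.77 (3.05 to 4.40), and it was higher in 6 of 6 libraries. Other lists of related genes gave 0 calls higher: 22 genes of cholesterol uptake, synthesis and export (0 lower, median -0.28) and 9 genes of H3K27 methylation (0 lower, median 0.22). Npc1 itself had 29 UMIs in 22 members, at 35.8 CPM (24.0 to 51.5) against 29.2 in all other nuclei, and 4.33 to 113 CPM over the 6 libraries. No library was assigned a genotype from these values.

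Markers of other cells were read in the same way. The summed level of 6 astrocyte markers was 1049 CPM in the members (340 to 1498 over libraries) and 1445 in all other nuclei, that of 5 oligodendrocyte markers 946 (23.1 to 2363) and 1300, that of 7 microglial markers 66.7 (24.4 to 126) and 122, and that of 6 endothelial and mural markers 193 (18.9 to 325) and 345. All other nuclei include those cells themselves, so little can be read from lower sums in the members. Against Adarb2 interneurons the members were higher for astrocyte markers (693 CPM there, log2 ratio 0.60, 0.50 to 0.70, in 4 of 6 libraries), oligodendrocyte markers (607, 0.64, 0.53 to 0.75, in 3 of 6) and endothelial and mural markers (156, 0.31, 0.06 to 0.54, in 2 of 6), and lower for microglial markers (99.8, -0.58). The part of these cells' RNA in the comparisons was not tested. The oligodendrocyte sum had the widest range between libraries of the 4. Defining markers were low rather than absent, with Csf1r at 8 UMIs in 4 nuclei. Of 9 excitatory neuroblast genes 1 was higher than in all other nuclei, and this was Eomes, whose 6 UMIs came from a single nucleus. The doublet caller Scrublet marked at most 0.00927% of a library, too few to use, and the highest 6% of its scores were taken instead. The study's methods remove multiplets, and whether this was done before deposit is not stated in the sources used here. These held 11 of the 87 nuclei (12.6%) against 6.35% of all nuclei, with 7 of the 11 in library 3. The part of doublets in the levels was not tested beyond leaving out these nuclei.

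The nearest GABAergic class by the rule was that of Adarb2 interneurons, cells mainly of the caudal ganglionic eminence. It was taken as 2215 nuclei with at least 10 UMIs of Adarb2 and at least 2 of Gad1 and Gad2. These nuclei also had at most 1 UMI of Lhx6, at most 1 of Rgs9 and at most 1 of Slc17a7 and Slc17a6 together. Against them, 446 of 14026 genes were at least 2-fold higher (3.18%) and 830 lower (5.92%), and with the counting interval 285 (2.03%) and 215 (1.53%). Genes higher than in Adarb2 interneurons included Ccnd2, Chd7 and Satb1, but few genes of the related lists passed the interval call. By the interval call, 1 of 9 tested cell cycle genes outside the rule and 0 of 9 H3K27 methylation genes were higher. Of 13 chromatin genes listed as partners of SoxC and Dlx factors 1 was higher, with a summed log2 ratio of -0.05 (-0.10 to 0.003). Ccnd2 was at 120 CPM (97.2 to 146) against 48.0 (log2 ratio 1.32, 1.00 to 1.62), and Chd7, a chromatin remodeller of neural progenitors, at 142 CPM (117 to 171) against 62.1 (1.19, 0.91 to 1.47). Satb1, a chromatin organizer of interneurons, was at 147 CPM (122 to 176) against 59.2 (1.31, 1.03 to 1.59). Each of these 3 genes was higher in 6 of 6 libraries, which the ranking required. The progenitor and Notch list was at 300.2 CPM against 302.1 in sum (log2 ratio -0.01, -0.20 to 0.18, higher in 2 of 6 libraries) over all depths, and under 5000 UMIs at 627 against 428 (0.55, 0.19 to 0.90, in 4 of 6). Gad1 and Gad2 went the other way, at 173 CPM against 247 (log2 ratio -0.51, -0.77 to -0.27) and at 224 against 370 (-0.72, -0.95 to -0.51), and each was higher in 1 of 6 libraries. The Adarb2 interneurons were chosen with at least 2 UMIs of Gad1 and Gad2 and the members were not, so nothing is read from this direction.

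Among the olfactory bulb factors, 5 of 16 were higher than in Adarb2 interneurons and 3 lower. St18 was at 145 CPM (120 to 173) against 67.1, Zic1, a zinc finger factor of the dorsal and septal forebrain, at 37.1 (25 to 52.9) against 14.0, and Nfia at 484 (438 to 535) against 242. Tshz1 was lower, at 55.6 CPM (40.5 to 74.4) against 142. Of 8 caudal eminence genes besides Adarb2, 0 were higher and 4 lower, with Prox1 at 37.1 CPM (25 to 52.9) against 64.4. The minimum and maximum set for Adarb2 in the 2 classes bear on these genes. The medial eminence genes were taken without Lhx6, which was limited in both classes. They summed to 697 CPM against 469 (log2 ratio 0.57, 0.44 to 0.69, in 6 of 6 libraries), and 1 of 6 tested, Satb1, was called higher. Against all other nuclei, 3 of 7 medial eminence genes were called higher and 0 lower, namely Maf, Lhx8 (11 UMIs) and Nkx2-1 (3 UMIs).

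Striatal projection neurons, taken as 2494 nuclei with at least 3 UMIs of the striatal gene Rgs9 and at least 2 of Gad1 and Gad2, were the second GABAergic class. These nuclei also had at most 1 UMI of Slc17a7 and Slc17a6 together and at most 9 of Adarb2. Against them, 1483 of 14092 genes were at least 2-fold higher (10.5%) and 1034 lower (7.34%), and 1177 (8.35%) and 552 (3.92%) with the counting interval. The split depended on the scaling, since trimmed-mean (TMM) factors gave 1053 higher and 1381 lower. Nfib, a nuclear factor I gene of migrating precursors, was at 782 CPM in the members against 128 in striatal neurons (log2 ratio 2.61, 2.49 to 2.74). The 2 classes were chosen by opposite limits on Rgs9, so lower striatal genes follow from the choice. Of 9 striatal lineage factors 0 were higher and 6 lower, with Foxp1 at 464 CPM (419 to 514) against 2155 and Bcl11b at 93.9 (74.0 to 118) against 430. Meis2, which striatal neurons also express, was lower in the members, at 1086 CPM against 1629 (-0.58, -0.68 to -0.49), and higher in 0 of 6 libraries.

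Dividing progenitors, taken as 413 nuclei with at least 3 UMIs of Top2a and Mki67, were the class to which some rule genes came close, although their level in the members follows from the choice. Beyond a maximum of 1 UMI of Slc17a7 and Slc17a6 together, the class was not limited to 1 lineage. Endothelial and mural markers summed to 953 CPM there against 345 in all other nuclei, and oligodendrocyte progenitor markers to 481 against 148. The name therefore does not mean progenitors of neuroblasts. Dlx1 was at 38.3 CPM in the members and 37.6 in the dividing nuclei (log2 ratio 0.03, -0.59 to 0.60), Dlx2 at 11.1 and 10.3 (0.11, -1.13 to 1.19), and Sox4 at 56.8 and 73.3 (-0.37, -0.85 to 0.09). The 5 genes of the Dlx programme and GABA synthesis outside the rule summed to 446 CPM against 248 in dividing nuclei (log2 ratio 0.84, 0.66 to 1.02, in 6 of 6 libraries), to 404 in striatal neurons (0.14, -0.01 to 0.29) and to 640 in Adarb2 interneurons (-0.52, -0.68 to -0.37, higher in 1 of 6 libraries), both chosen by Gad1 and Gad2. Of 10453 genes, 330 were at least 2-fold higher in the members (3.16%) and 1666 lower (15.9%), and with the counting interval 330 (3.16%) and 1546 (14.8%). TMM factors moved this split to 614 higher and 1283 lower. The 2 classes were chosen by opposite limits on Top2a and Mki67, so lower cell cycle genes follow from the choice and are given as a description. Of 11 cell cycle genes tested besides Top2a and Mki67, 9 were lower, and Knl1, a kinetochore gene, had 0 UMIs and was at least 51.3-fold lower with the floor of 3 counts (its exact interval ends at a log2 ratio of -5.38). Aspm, a spindle gene, was also at 0 UMIs and at least 19.6-fold lower with the same floor (interval end -3.99). Of 13 progenitor and Notch genes 9 were lower and 0 higher. Of 17 glutamate receptor genes 2 were higher and 0 lower (median log2 ratio 0.83), of 20 genes of the mature synapse 3 and 0 (0.68), and of 15 tested GABA signalling genes 2 and 0 (0.72). Gria1, an AMPA receptor subunit gene, was at 1941 CPM against 575 (log2 ratio 1.75). Its level in members under 5000 UMIs was 416 CPM. That is 0.47 below dividing nuclei of all depths on the log2 scale (-0.91 to -0.06) and 0.77 above those under 5000 UMIs (0.28 to 1.25). Ccnd2 was lower than in the dividing nuclei, at 120 CPM against 190 (-0.67, -0.99 to -0.36), but members under 5000 UMIs had 458 CPM, 0.91 above dividing nuclei under 5000 UMIs on the log2 scale.

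Depth divided the Sox11 and Dlx positive nuclei into sets with different genes. The share of nuclei that met the rule was not even over depth, and 22 of the 67 members with at least 2 UMIs of Gad1 and Gad2 lay from 2000 to under 5000 UMIs, 0.650% of the 3385 such GABAergic nuclei, against 0.217% of those from 5000 to under 10000 and 0.649% of those at 10000 or more. Nuclei under 5000 UMIs were then set apart, a division made after the data were seen. It gave 35 nuclei with a median of 3329 UMIs and 52 with a median of 11476.5, and the 52 deeper nuclei held 85.4% of all members' UMIs. The 11 members with a high doublet score all lay among the 52 deeper nuclei, with 0 among the 35, and their part in the contrast of the 2 sets was not tested. Libraries 1 to 6 held 7, 7, 6, 9, 2 and 4 of the shallower nuclei and 10, 10, 17, 8, 4 and 3 of the deeper ones. When every nucleus of at least 2000 UMIs was thinned to 2000 before the rule was applied, 14 of 67638 met it (0.0207%, 0.0113 to 0.0347). The 9 original members among them were all under 5000 UMIs. Of the 52 deeper members, 10 had 3 or more UMIs of Sox11, so few of the 52 could keep 2 after thinning. Nothing is read from this outcome.

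Because the rule asks for at least 2 UMIs, it forces a high CPM of its own genes in shallow nuclei. The same minima can favour shallow nuclei in which genes that go with the rule genes, or overlap them, are also high, and the maxima act on genes that go with the excluded markers. The sets are therefore described by other genes, with no reading of why they differ, beside the same contrast in the other nuclei with at least 2 UMIs of Gad1 and Gad2, 3653 under 5000 UMIs and 10709 of 5000 or more, which were not chosen by Sox11 or Dlx and so do not remove this effect of the choice. Of 3142 genes tested, 367 were at least 2-fold higher in the shallower members with the interval past no difference (11.7%) and 424 lower (13.5%). In the other GABAergic nuclei, 172 of the same genes were at least 2-fold higher in shallower nuclei (5.47%) and 1 lower (0.0318%), by the fold alone. The intervals leave out variation between nuclei, which weighs more over 35 and 52 nuclei than over 3653 and 10709. The 2 pairs of counts are therefore not alike, and their difference was not tested. Markers of other cells were not limited in the other GABAergic nuclei. Under 5000 UMIs, astrocyte markers summed to 1757 CPM in them, 934 in Adarb2 interneurons and 1416 in the members. Oligodendrocyte markers summed to 1574, 725 and 1704 CPM in the same order. The part of such RNA in the contrast was not tested.

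**Figure D3:**
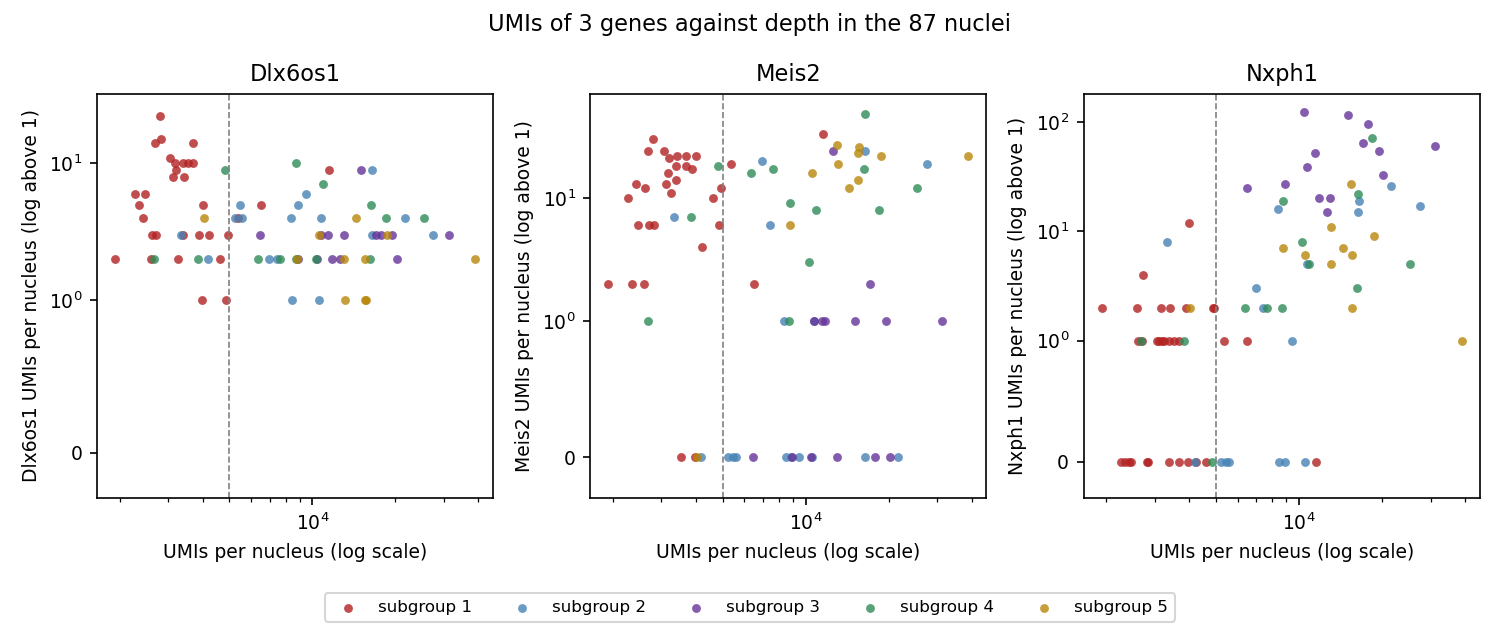
UMIs of Dlx6os1, Meis2 and Nxph1 in each of the 87 nuclei (vertical axes, log scale above 1) against total UMIs per nucleus (log scale), coloured by subgroup, with a dashed line at 5000 UMIs. Meis2 had a median of 11 UMIs left of the line and 2.5 right of it, whereas Nxph1 had medians of 1 and 7.5.

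Genes of the Dlx programme and of GABA synthesis were higher in the shallower nuclei. Summed over the 5 genes outside the rule, they were at 958 and 359 CPM in the shallower and deeper members (log2 ratio 1.42, 1.08 to 1.74, in the same direction in 6 of 6 libraries), with a ratio of 1.00 in the other GABAergic nuclei. Sp9 was at 93.3 CPM (46.6 to 167) and 11.6 in the members, and at 13.7 and 8.24 in the other GABAergic nuclei. Gad1 had a log2 ratio of 1.57 (1.03 to 2.09) in the members and 1.13 (1.08 to 1.17) in the other GABAergic nuclei. The minimum of Gad1 and Gad2 that defines the other GABAergic nuclei raises their level in shallow nuclei, so neither this 1.13 nor the summed ratio of 1.00 is a free comparison.

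Factors of olfactory bulb interneurons went with them. Meis2 stood at 4320, 2499, 3297, 2571, 6392 and 4366 CPM in the shallower members of libraries 1 to 6. Over all shallower members it was at 3358 CPM (3035 to 3705), against 698 in the deeper members and 1039 and 803 in the other GABAergic nuclei, and its log2 ratio of 2.27 (2.07 to 2.46) compares with 0.37 (0.35 to 0.40). Shallower members were thus above each of the other sets, and the deeper members below both. Nfib was at 2035 and 568 CPM in the members, against 522 and 329 in the other GABAergic nuclei, and the ETS factor gene Etv1 at 271 and 63.6, against 73.7 and 47.3. Summed over the 16 factors, the log2 ratio was 1.61 (1.5 to 1.71) in the members, in the same direction in 6 of 6 libraries, and 0.43 in the other GABAergic nuclei. Sp8 had 3 UMIs in 2 shallower nuclei, too few to read a contrast from, whereas Zfhx3 went the other way, at 119 and 273 CPM.

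Cell cycle and chromatin genes were higher in the shallower nuclei too. Ccnd2 stood at 579, 476, 343, 282, 888 and 745 CPM in the shallower members of libraries 1 to 6, and was detected in 25 of 35 shallower and 19 of 52 deeper nuclei. It was at 458 CPM (344 to 597) against 62.2, with 70.2 and 43.6 in the other GABAergic nuclei and 243 in shallower dividing nuclei. The cell cycle list without rule genes was at 695 and 108 CPM in the members (log2 ratio 2.68, 2.21 to 3.15) and had a ratio of 0.84 in the other GABAergic nuclei. Most of its UMIs in the members were those of Ccnd2. Chd7 was at 466 and 86.8 CPM, against 95.6 and 49.3, and Ezh2, the H3K27 methyltransferase gene, at 178 and 40.5, against 54.5 and 33.6. The 13 chromatin genes listed as partners of SoxC and Dlx factors summed to 8106 and 3664 CPM. Their summed log2 ratio was 1.15 (1.04 to 1.25), with 0.03 in the other GABAergic nuclei. Most of the sum was Auts2 (5283 and 2338 CPM), and Bcl11a was at 678 and 257 CPM.

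The migration machinery showed a smaller contrast. Without Dcx, its sum was at 8819 and 4626 CPM in the shallower and deeper members (log2 ratio 0.93, 0.83 to 1.03, in 6 of 6 libraries), with 0.46 in the other GABAergic nuclei. Tiam2, a Rac activator, was at 856 and 117 CPM, against 136 and 94.6. Dpysl3, a collapsin response mediator, was at 339 and 75.2, against 81.3 and 55.4. The Slit receptor gene Robo2 was at 2417 CPM (2144 to 2714) and 808, against 901 and 947 in the other GABAergic nuclei, while Robo1 was lower in shallower members, at 721 and 1607 CPM. Over the whole guidance list the ratio was -0.03 (-0.12 to 0.05), with -0.29 in the other GABAergic nuclei. The chain migration and adhesion list was lower in the shallower members of 6 of 6 libraries (-0.42, -0.51 to -0.34), with -0.33 in the other GABAergic nuclei, and shallower members were 0.53 below Adarb2 interneurons under 5000 UMIs on the log2 scale (-0.61 to -0.45), also in 6 of 6 libraries.

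Genes of mature neurons were lower in the shallower nuclei. Gria1 was at 416 CPM (307 to 549) and 2201 in the shallower and deeper members, against 1091 and 1553 in the other GABAergic nuclei. Its log2 ratio was -2.41 (-2.85 to -1.99) in the members and -0.51 (-0.53 to -0.48) in the others. It was lower in the shallower members of 6 of 6 libraries. Gabrg3, a GABA-A receptor subunit gene, was at 348 and 1578 CPM, against 1103 and 1722. Syt1, a calcium sensor of vesicle release, was at 1145 and 2612, against 1979 and 2638. The summed log2 ratio was -1.10 (-1.21 to -1.0) for 17 glutamate receptor genes, -0.96 (-1.13 to -0.80) for 16 GABA signalling genes and -0.91 (-1.03 to -0.79) for 20 genes of the mature synapse. In the other GABAergic nuclei these values were -0.41, -0.33 and -0.21, and in Adarb2 interneurons -0.15, -0.18 and -0.14. The deeper members were close to deeper GABAergic nuclei for Gabrg3 and Syt1.

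**Figure D4:**
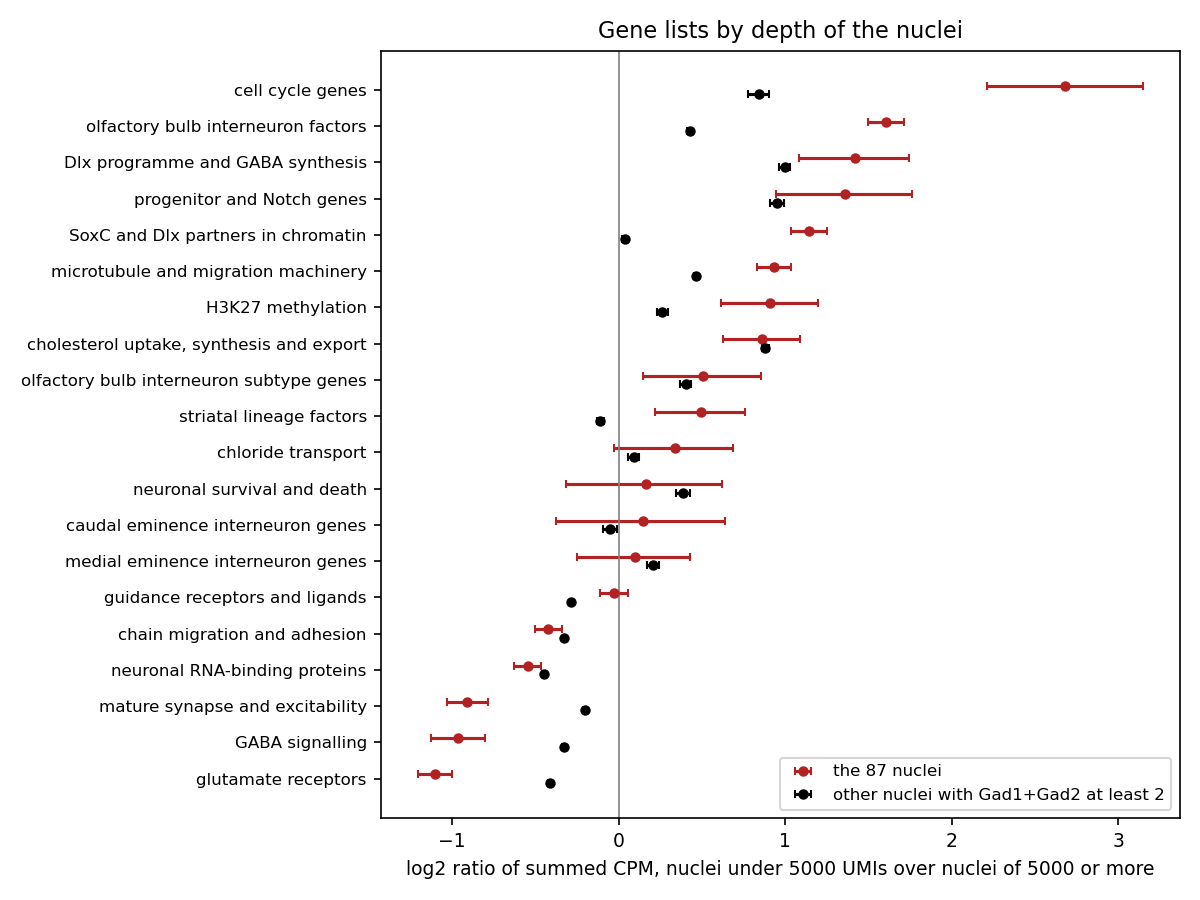
Log2 ratio of the summed CPM of 20 gene lists without rule genes, nuclei under 5000 UMIs over nuclei of 5000 or more, with exact 95% intervals, for the 87 nuclei (red) and the other nuclei with at least 2 UMIs of Gad1 and Gad2 (black). The red point lies right of the black one for cell cycle genes (2.68 and 0.84) and left of it for glutamate receptors (-1.10 and -0.41).

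Apoe and the cholesterol list followed depth alike in both populations, whereas markers of other cells did so in part. Apoe, an astrocyte and microglial gene, was at 890 CPM in the shallower members and 894 in the shallower other GABAergic nuclei, and at 328 and 324 in the deeper ones. The cholesterol list had log2 ratios of 0.86 (0.63 to 1.09) in the members and 0.88 in the other GABAergic nuclei. The oligodendrocyte markers had 1.06 (0.82 to 1.30) and 1.03, but were higher in the shallower members of 3 of 6 libraries, with 109 of their 201 UMIs from library 1. The astrocyte markers had 0.52 (0.27 to 0.77) and 1.01, and the microglial markers, at 59.4 CPM in the shallower members and 68 in the deeper, -0.20 (-1.59 to 0.96) and 0.87. The oligodendrocyte progenitor list had ratios of 1.94 (1.39 to 2.48) and 1.29, and most of its UMIs in the shallower members were those of Vcan, a matrix proteoglycan gene also active in young neurons. What free RNA contributed to the contrast of the 2 sets was not tested beyond these values.

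Under the same upper limit of 5000 UMIs, the shallower members (median 3329 UMIs) could be set beside 474 Adarb2 interneurons (3919.5) and 190 dividing nuclei (3180.5), with depth not matched further. Some markers of other cells were also higher than in these Adarb2 interneurons. Log2 ratios were 1.23 (1.01 to 1.45, in 5 of 6 libraries) for oligodendrocyte, 0.85 (0.39 to 1.28, in 6 of 6) for oligodendrocyte progenitor and 0.60 (0.36 to 0.83, in 6 of 6) for astrocyte markers. Striatal markers, at -0.66 (-1.05 to -0.29), and excitatory markers, at -0.44 (-0.83 to -0.07), were lower. Intervals crossed no difference for microglial (-0.82, -2.15 to 0.25), endothelial and mural (0.07, -0.50 to 0.60) and ependymal and choroid plexus markers (0.05, -0.35 to 0.43). The part of all these cells in the values below was not tested. Ccnd2 had log2 ratios of 2.58 (2.1 to 3.05) over Adarb2 interneurons and 0.91 (0.44 to 1.37) over dividing nuclei, and Meis2 of 0.92 (0.77 to 1.08) and 2.03 (1.83 to 2.22). Chd7 was above Adarb2 interneurons by 2.26 (1.79 to 2.7), and differed from dividing nuclei by 0.17 with an interval of -0.28 to 0.60. Ezh2 lay between them, 1.4 above the first (0.66 to 2.08) and 1.05 below the second on the log2 scale (-1.77 to -0.41). Gad1 was at 399 CPM (293 to 530) in the shallower members and 93.6 in dividing nuclei, and its level in shallow Adarb2 interneurons was set in part by how they were chosen. Draxin was at 102 CPM (52.6 to 178), 20.6 and 32.8. The glutamate receptor sum was 0.77 below Adarb2 interneurons on the log2 scale (in 6 of 6 libraries) and 0.17 above dividing nuclei.

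**Figure D5:**
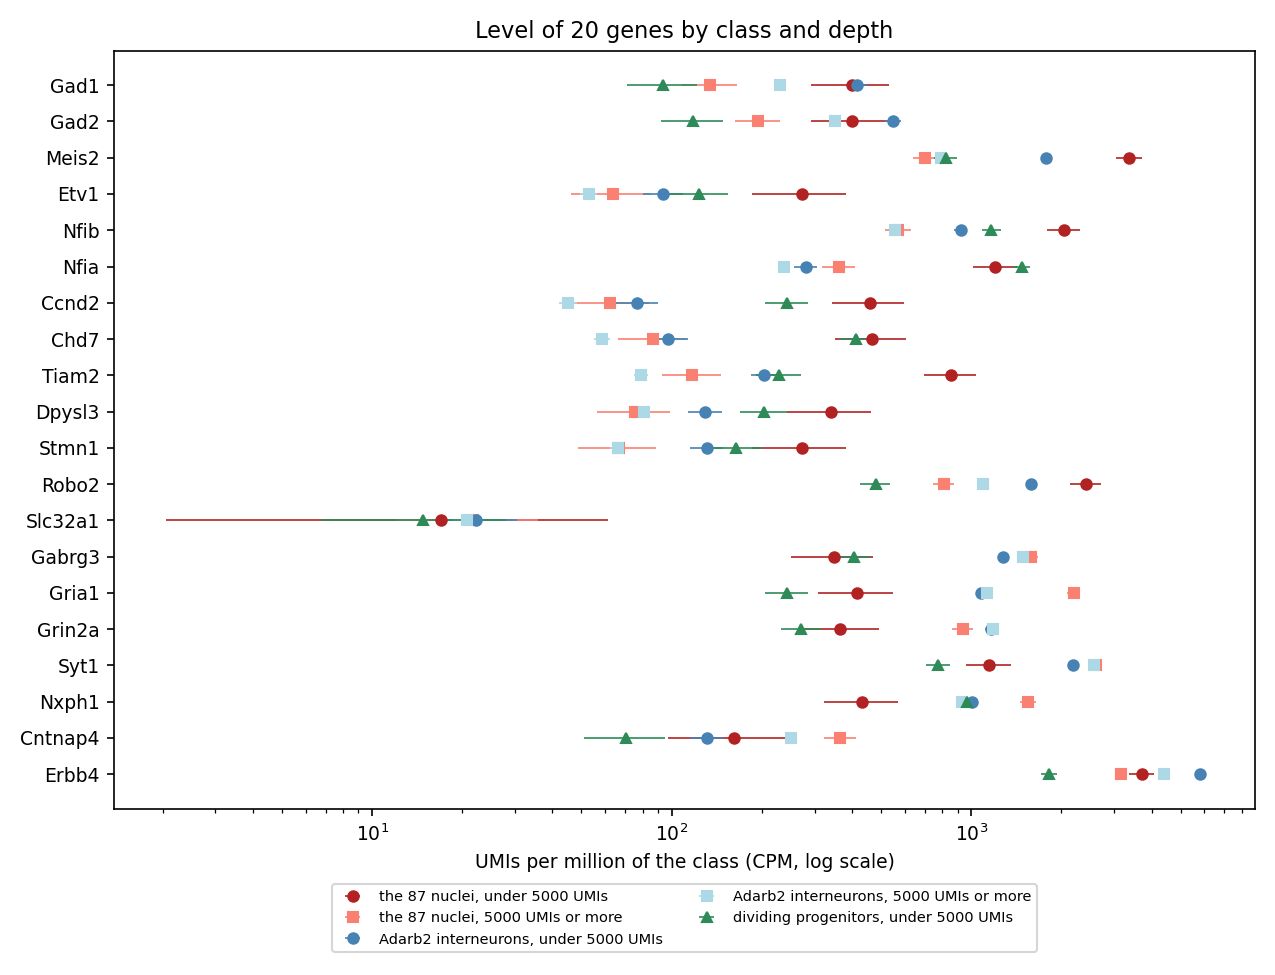
CPM with exact 95% Poisson intervals (log axis) of 20 genes in members under 5000 UMIs, members of 5000 or more, Adarb2 interneurons of both depths and dividing nuclei under 5000 UMIs. Gria1 reads 416, 2201 and 1082 CPM in shallower members, deeper members and shallower Adarb2 interneurons.

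Clustering of the 87 nuclei without the rule genes gave 5 subgroups, which are described by their leading genes and were left unnamed. Subgroup 1 held 32 nuclei with a median of 3312.5 UMIs, 29 of them under 5000, from each of the 6 libraries (7, 6, 5, 8, 2 and 4 nuclei). Its leading genes were 2610307P16Rik (912 CPM, in 27 of 32 nuclei, against 59.3 in the other members), Cdca7 (177 against 7.24, in 12 nuclei), Ccnd2 (540 against 48, in 26), Gm38505 (2052 against 237, in 28), Tiam2 (920 against 106, in 29) and Sox2ot (7574 against 1080, in 29). Cdca7 is a target of MYC and E2F that helps to maintain DNA methylation. Subgroup 1 had Meis2 at 3521 CPM, and it overlaps largely with the shallower set.

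The other 4 subgroups were deeper and led by other genes. Subgroup 2 held 17 nuclei with a median of 8459 UMIs, led by Rmst, Arhgap24 and Zfp804b. Subgroup 3 held 14 nuclei with a median of 12789.5 UMIs, 0 of them under 5000, led by the potassium channel gene Kcnc2 and by Il1rapl2, Col19a1 and the kainate receptor gene Grik1. Nxph1 was at 3615 CPM there and detected in 14 of 14 nuclei, and Meis2 was at 155 CPM. Subgroup 4 held 13 nuclei, 7 of them from library 3 and 5 with a high doublet score, led by genes of vascular and meningeal cells such as Flt1 (356 CPM against 25 in the other members), Adgrl4 and Slc6a20a. Subgroup 5 held 11 nuclei with a median of 14396 UMIs, led by Ano2, Adamtsl1, Myo5b and the diacylglycerol kinase gene Dgkg (1094 CPM against 153).

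Promoters were looked up for genes of the rule and for leading genes of subgroup 1. The rule genes are there because they define the nuclei, and the leading genes because they were high together in subgroup 1. RefSeq promoters (GRCm38.p6, 250 bases before to 50 bases after the start) matched for 14 of 21 genes, 20 promoters in all. They were searched on both strands for the homeodomain core TAATTA, which reads the same on both strands and is held by 5.29% of the 32851 promoters, and for the SOX motif AACAATG, held by 3.78%. TAATTA was found in 2 of the 20 promoters, both of Dcx and both holding the same site. It lies 134 bases before the start in the printed promoter (chrX:143933075-143933374, minus strand) and 39 in the other. AACAATG was found for 2 genes. In 2610307P16Rik (chr13:28885373-28885672, minus strand) it lies 214 bases before the start. In Tiam2 it lies in 1 promoter (chr17:3482065-3482364, plus strand), 220 bases before the start and in the reverse direction, and not in the gene's other promoters. Sequences are printed 5′ to 3′ on the gene's strand with the match in capitals, and a match describes these letters only.
Dcx: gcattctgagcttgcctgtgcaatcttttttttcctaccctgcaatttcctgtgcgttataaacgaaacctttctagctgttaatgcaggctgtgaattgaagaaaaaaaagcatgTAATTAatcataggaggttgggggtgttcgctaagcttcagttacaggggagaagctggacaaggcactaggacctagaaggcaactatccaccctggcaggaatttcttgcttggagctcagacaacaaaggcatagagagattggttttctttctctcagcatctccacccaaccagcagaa
2610307P16Rik: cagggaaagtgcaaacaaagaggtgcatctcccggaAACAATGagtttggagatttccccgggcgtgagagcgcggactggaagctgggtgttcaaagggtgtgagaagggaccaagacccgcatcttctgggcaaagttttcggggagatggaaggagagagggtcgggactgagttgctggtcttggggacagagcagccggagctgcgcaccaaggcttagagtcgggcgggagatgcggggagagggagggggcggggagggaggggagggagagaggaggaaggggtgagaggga
Tiam2: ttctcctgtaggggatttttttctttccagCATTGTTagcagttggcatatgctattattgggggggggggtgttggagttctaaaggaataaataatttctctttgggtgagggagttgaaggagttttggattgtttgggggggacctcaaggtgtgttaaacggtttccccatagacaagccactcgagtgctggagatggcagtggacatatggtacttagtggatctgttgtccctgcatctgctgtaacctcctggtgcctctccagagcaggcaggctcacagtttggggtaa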

How the data were processed

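The authors deposited 1 matrix of UMI counts (whole numbers, not normalized) that joins 6 libraries, with 75878 barcodes and 32285 genes. Per the file headers it was written by Cell Ranger 6.0.0, whereas the submitters' processing notes name Cell Ranger 2.1.1 and mm10 and the study's methods describe alignment with STARsolo (GRCm38), filters on empty droplets, multiplets and mitochondrial share, and imputation. The sources used here do not say how the matrix relates to the authors' filtered data or whether intronic reads were counted. Libraries held 51342120 to 107561475 UMIs.

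From the counts, 11 barcodes with a mitochondrial share of 10% or more were left out, the rule was applied, and UMIs were summed per class. CPM is relative to all UMIs of the class. Ratios of genes with at least 50 UMIs over both classes carry an exact binomial interval, levels an exact Poisson interval and shares a Clopper-Pearson interval, at 95%. A 2-fold difference was called. Classes were not tested against one another, because the members were chosen by the UMIs of the same nuclei, and WT and Npc1-/- were not compared, because libraries could not be tied to mice. Named genes were those of the rule, the 25 with the highest ratio over all other nuclei, the 10 lowest, and the 10 highest and lowest against each compared class (highest: at least 3 UMIs in members of every library and higher in every library), and genes of fixed lists. Some genes of the ranking and the lists are not reported here. Genes named from the depth division, the subgroups or the promoter search were chosen after their values were seen, and so were Npc1, Apoe and Eomes. The rule, lists and compared classes were chosen with earlier results of these data known. For thinned values, nuclei were drawn down to 2000 UMIs. Scrublet scores were computed within each library, subgroups by Leiden clustering (leidenalg 0.10.2, scanpy 1.11.5) without rule genes. Gene positions are those of GENCODE vM21, matched by identifier for 448 of 448 genes. Python 3.11.15, numpy 2.4.6, scipy 1.17.1 and pandas 2.3.3 were used, and edgeR 4.0.16 in R 4.3.3 for TMM factors only. The scripts were tested on simulated data. Alternatives were a stricter rule, thinning, leaving out high doublet scores or each library, TMM factors, mean CPM over nuclei, no minimum, and, added after the data were seen, the interval call and the depth division.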

Additional observations from a re-analysis of the deposited data

Results flagged for a closer look

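The summed level of the Dlx programme and GABA synthesis genes outside the rule (Dlx5, Dlx6, Sp9, Gad1 and Gad2) was 336, 398, 485, 473, 454 and 761 CPM in the Sox11 and Dlx positive nuclei of libraries 1 to 6. The level of 761 CPM in library 6 stood apart, since its gap to the nearest library was 0.649 of the whole range, past Dixon's limit at 95% for 6 libraries. It rests in part on Gad2, at 461 CPM (20 UMIs) in library 6. Without library 6 the log2 ratio of the summed level over all other nuclei was 1.44, against 1.52 with it. Chance flags about 1 in 20 groups, and 33 values were compared.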

How the results depend on the processing

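No paired analysis was possible because the labels number the mice 1 to 3 in both groups but no library could be tied to a mouse, and no comparison was tested. The share of Sox11 and Dlx positive nuclei (0.115%) was 0.0237% with at least 3 UMIs of Sox11, 0.0857% with a Dlx sum of at least 3, 0.0606% with at least 2 second genes and 0.0207% after thinning. Leaving out high doublet scores gave 0.107%, and leaving out each library 0.105 to 0.124%. Genes at least 2-fold higher than in all other nuclei numbered 6356, and 10854 with at least 3 UMIs of Sox11, 12773 with no minimum, 12657 in the shallower members and 425 with the interval (6153 to 6753 without each library). Genes at least 2-fold lower numbered 1220, and 2319 by mean CPM over nuclei, and those lower than in dividing progenitors 1666, and 2998 with no minimum. Against Adarb2 interneurons the 446 genes became 3015 with at least 3 UMIs of Sox11, 911 by mean CPM over nuclei, 8831 with no minimum, 5042 in the shallower members and 285 with the interval (409 to 566). Against striatal projection neurons the 1483 became 4207, 2253, 10240 and 5977 under the first 4 of these (1352 to 1545). Against dividing progenitors the 330 became 614 with TMM factors, 5323 with no minimum and 751 in the shallower members (314 to 372). Fewer members, or genes with fewer UMIs, are part of the construction of the strict rule, of no minimum and of the shallower set, and for the other changes the cause was not tested.

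In the shallower members alone, 2 of 62 values of named genes stayed within the counting interval, 51 moved outside it and 9 turned direction, and 95 of 120 list values moved. In these members the log2 ratio against all other nuclei was -0.049 for Nxph1, -2.11 for Dgkg and -0.065 for Grip1os2. Against Adarb2 interneurons it was -1.48 for Man1a, and against dividing progenitors -1.17 for Dgkg, -1.47 for Rab3b, -0.54 for Il1rapl2, -0.47 for Gria1 and -1.77 for Gm1604a. The compared nuclei were of all depths, and Gria1 was above dividing nuclei under 5000 UMIs, as given earlier. The summed cell cycle list turned to 0.36 against dividing progenitors of all depths, and was -0.23 (-0.59 to 0.11) against those under 5000 UMIs. Leaving out high doublet scores moved 30 of 92 named gene values and reversed 0. For named genes, leaving out a library gave 414 values within the counting interval, 137 outside it and 0 reversed. A further 31 alternatives had no direction because of 0 UMIs, 30 of them in the shallower members alone. Of 33 values compared over the 6 libraries, 1 had a library past the Dixon limit at 95%. The depth of 809474 UMIs over 87 nuclei limits the values of low genes such as Dlx2 and Sp8, which rest on 9 and 4 UMIs.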
